A study of Homo sapiens with 14 samples.

Results

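The genes described here restrain NF-kB or are switched on by it: the inhibitors NFKBIA, NFKBIB and NFKBIE, the nuclear regulator BCL3, the adaptors TNIP1 and TNIP2, the ubiquitin-editing enzyme TNFAIP3, and TNFAIP2. They were taken by gene symbol from the array annotation, which named 18377 genes, and all 8 were found, each on 1 transcript cluster. By the array's identifiers these are 7978644 for NFKBIA, 8028552 for NFKBIB, 8126666 for NFKBIE, 8029465 for BCL3, 8115210 for TNIP1, 8099029 for TNIP2, 8122265 for TNFAIP3 and 7977046 for TNFAIP2. On 7 of them the mean signal lay above a low-signal limit of 5.80 on the log2 scale, under which the dimmest 40% of genes fell. TNFAIP3 lay under it, with a mean of 5.47, and exceeded that limit on 2 of 14 arrays. Its values are given with that reservation.

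NF-kB dimers are held in the cytoplasm by IkB proteins that mask their nuclear localization signals. When the IKK kinases phosphorylate an IkB, it is ubiquitinated and degraded by the proteasome, and the freed dimers enter the nucleus and switch on genes that include those of their own inhibitors. This loop, together with enzymes and adaptors that take apart the ubiquitin chains of the signalling complexes, limits how long the pathway stays on.

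All samples were MiaPaCa2, an established human pancreatic carcinoma cell line, transfected with a small interfering RNA (siRNA) by the INTERFERin reagent and profiled as total RNA on 14 Affymetrix arrays. In the NF-kB set, 6 arrays covered cells given siRelA, siRelB or the scrambled siCtrl, each kept for 9 h in EBSS (Earle's balanced salt solution, a starvation medium) or in mock, a condition whose composition the labels do not state. In the Nupr1 set, 8 arrays covered siNupr1 and siCtrl at 0 h, without starvation, and after 3, 6 and 9 h in EBSS. Each combination was hybridized once, and nothing states that arrays came from separate cultures. The spread used in every test therefore came from departures from additive effects and may be partly technical. Except where stated, it was pooled over both sets, so a standard error given with a number of pairs is not the spread of those pairs alone. The labels describe the EBSS used as free of glucose as well as of amino acids and growth factors, while its usual formula holds glucose. For the 0 h arrays the titles give DMEM and the source field gives EBSS. For siNupr1 at 9 h the title names another siRNA than the source and description do. The study asked, by its design text, which genes depend on NUPR1 in starvation and whether RELA and RELB act on different genes.

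The siRNAs against the silenced genes are shown because every comparison of siRNAs rests on them. The labels list a pair each for NUPR1 and RELB without saying which was used on the arrays. They are written 5' to 3' without the added thymidines, and capitals mark the 15 bases that both RELB siRNAs share, so these are not independent in sequence.
siNupr1: ggaggacccaggacaggau
siNupr1#2: aggucgcaccaagagagaa
siRelA: gaucaauggcuacacagg
siRelB: GGAUUUGCCGAAUUAacaa
siRelB#2: cugcGGAUUUGCCGAAUUAuu

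The promoters of 4 of these genes are shown because the nearest 120 bases upstream of an annotated start hold a match to the kappa B consensus. This is the DNA motif that NF-kB dimers bind. The sequences are from RefSeq (GRCh38.p14), from position -120 to -1 before that start. NFKBIA lies at chr14:35404750-35404869 on the minus strand and NFKBIB at chr19:38899849-38899968 on the plus strand. TNIP1 lies at chr5:151081035-151081154 on the minus strand and TNFAIP3 at chr6:137867139-137867258 on the plus strand. Capitals mark each match, as read on the strand of the gene.
NFKBIA: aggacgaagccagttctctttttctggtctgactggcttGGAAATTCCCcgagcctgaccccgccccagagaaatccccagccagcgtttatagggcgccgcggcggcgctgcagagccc
NFKBIB: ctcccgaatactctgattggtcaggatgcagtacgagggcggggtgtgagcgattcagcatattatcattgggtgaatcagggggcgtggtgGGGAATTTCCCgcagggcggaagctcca
TNIP1: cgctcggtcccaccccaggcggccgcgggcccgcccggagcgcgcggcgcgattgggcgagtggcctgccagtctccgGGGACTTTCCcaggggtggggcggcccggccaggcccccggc
TNFAIP3: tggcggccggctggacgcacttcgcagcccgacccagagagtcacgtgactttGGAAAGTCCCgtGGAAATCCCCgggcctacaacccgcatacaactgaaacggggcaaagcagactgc

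Promoter entries existed for 7 of the 8 genes, NFKBIE being the one without. There were 9 entries, as NFKBIB and TNIP1 had 2 annotated starts each. For both of these genes only the entry shown held a match, and the other entry held none. Both strands of 35116 entries, running from 250 bases before to 50 after each start, were searched, and 11.3% held the consensus. The version GGGAATTTCC was present in the promoters of both NFKBIA (antisense, -81 to -72) and NFKBIB (sense, -28 to -19). In NFKBIB it overlaps a match on the other strand. It was found in 0.145% of all entries. This version was picked because both promoters hold it, so its low share is not a test of either gene. TNFAIP3 carried 2 antisense matches, at -67 to -58 and -55 to -46, and TNIP1 carried 1 sense match at -42 to -33. In BCL3 the match lay just past the start, at 3 to 12. The NFKBIB entry shown also held a match on both strands past the start, at 39 to 48. The windows of TNIP2 and TNFAIP2 held no match.

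The silenced genes were lower in every pair of arrays that tests them. RELA, the main activating subunit of the canonical pathway, had log2 differences of -2.63 in EBSS and -2.36 in mock with siRelA. RELB, the subunit of the alternative pathway, had -1.68 in EBSS and -0.95 in mock with siRelB. NUPR1, a stress-induced nuclear protein, had -0.69, -0.92, -1.21 and -0.65 with siNupr1 at 0, 3, 6 and 9 h. RELB also fell by 0.67 ± 0.12 with siNupr1 (SE, 4 pairs, limma adjusted p = 0.000945), so the siNupr1 arrays were low in RELB as well. Of the cell markers, KRT8, KRT18 and KRT19 were bright (means 12.79, 13.01 and 10.11) while the epithelial EPCAM (3.56) and CDH1 (4.53) were dim, and VIM was bright (12.65). PTPRC, a leukocyte marker, stood at 2.65 and the low-signal limit was passed by 1 of 3 leukocyte (CD68), 2 of 4 fibroblast (COL1A1 and COL3A1) and 0 of 3 endothelial markers measured. Their part in the results below was not tested. Whole cultures were measured, so fewer cells of a kind and less RNA per cell cannot be told apart.

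**Figure D1:**
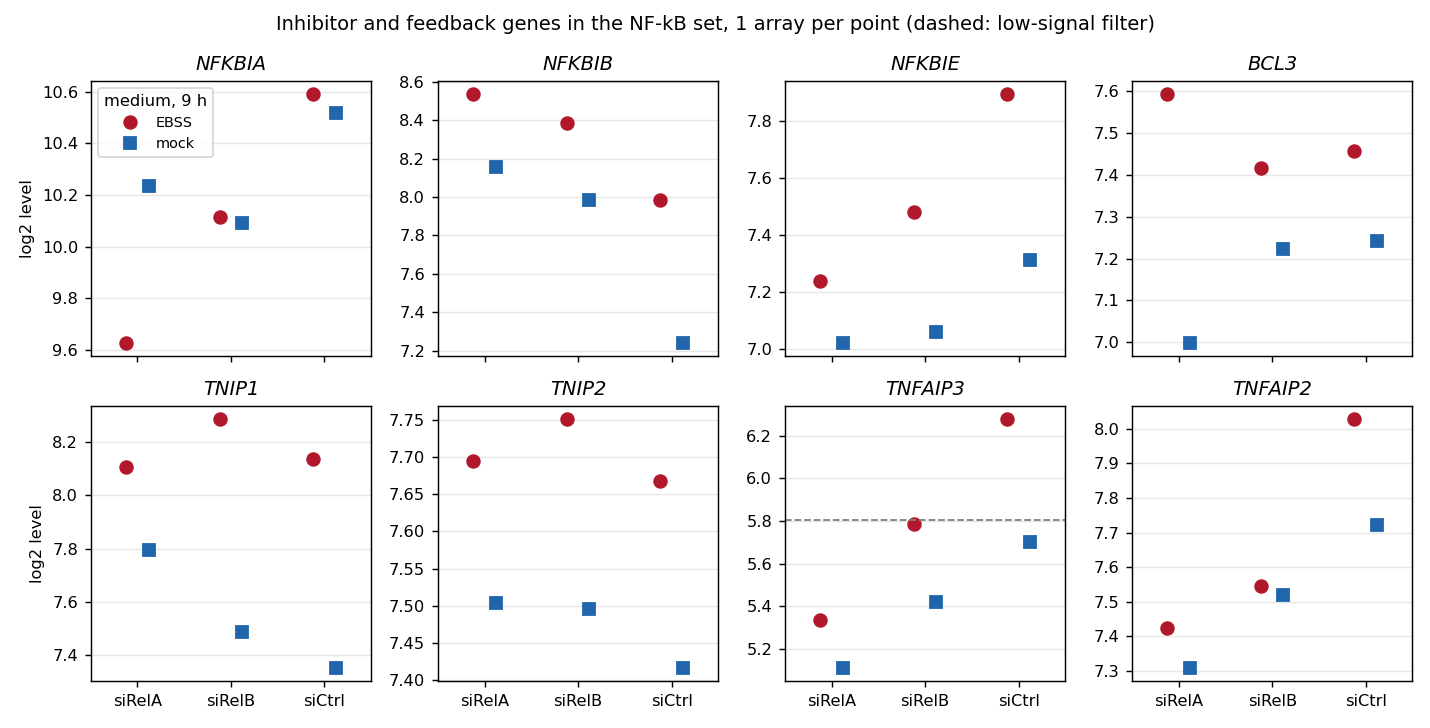
Log2 signal (vertical axis) of the 8 genes in the 6 arrays of the NF-kB set, 1 point per array, grouped by siRNA and medium at 9 h. NFKBIA was lowest in siRelA EBSS, at 9.63, and NFKBIB was lowest in siCtrl mock, at 7.24.

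With siRelA, NFKBIA, NFKBIE and TNFAIP2 were lower and NFKBIB was higher than with siCtrl. Of the 7 genes tested, 1 rose and 3 fell, against 10.1% and 11.4% of the 11026 genes tested over the array. The median difference of the 7 was -0.05, and that of all tested genes was 0.01. NFKBIA encodes IkB-alpha, the inhibitor that NF-kB re-makes fastest. Its log2 signal was 9.63 in siRelA EBSS and 10.23 in siRelA mock, against 10.59 in siCtrl EBSS and 10.52 in siCtrl mock. Both siRelA arrays lay under both siCtrl arrays, and the gap was far wider in EBSS than in mock. The log2 difference was -0.62 ± 0.14 (SE, 2 pairs of arrays, limma adjusted p = 0.00351).

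NFKBIB, which encodes IkB-beta, an inhibitor less tied to rapid re-synthesis, went the other way. Its signal was 8.54 in siRelA EBSS and 8.16 in siRelA mock, against 7.98 in siCtrl EBSS and 7.24 in siCtrl mock. All of the siRelA values were above all of the siCtrl values. The difference was 0.74 ± 0.15 on the log2 scale (SE, 2 pairs, limma adjusted p = 0.00134). NFKBIE encodes IkB-epsilon, an inhibitor made later than IkB-alpha. It had 7.24 and 7.02 in siRelA EBSS and mock, against 7.90 and 7.31 in siCtrl EBSS and mock, a difference of -0.47 ± 0.13 (SE, 2 pairs, limma adjusted p = 0.0119). The higher siRelA array stayed just under the lower siCtrl array.

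TNFAIP2, a gene induced by TNF whose product has been tied to cell protrusions, had 7.42 and 7.31 in siRelA EBSS and mock, against 8.03 and 7.72 in siCtrl EBSS and mock. The groups did not overlap, and the difference was -0.51 ± 0.14 (SE, 2 pairs, limma adjusted p = 0.0102). Groups lay apart for 12.1% of all tested genes in the lower and 18.0% in the higher direction, so separation of 2 arrays from 2 is common here. TNFAIP3 encodes a ubiquitin-editing enzyme that shuts down TNF receptor and Toll-like receptor signalling. Tested with no low-signal filter, where 11.5% of 18377 genes passed, it fell by 0.77 ± 0.20 (SE, 2 pairs, limma adjusted p = 0.0143), with 5.33 and 5.11 in siRelA against 6.28 and 5.70 in siCtrl, EBSS first. Only the siCtrl EBSS array lay above the low-signal limit.

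The remaining 3 genes did not pass the test with siRelA. BCL3, an IkB-like protein that works in the nucleus with NF-kB subunits that lack an activation domain, had a difference of -0.05 ± 0.14 (limma adjusted p = 0.839). TNIP1, an adaptor that brings TNFAIP3 to ubiquitin chains, had 0.20 ± 0.15 (limma adjusted p = 0.371), and TNIP2, a related adaptor that also stabilizes a kinase upstream of ERK, had 0.06 ± 0.12 (limma adjusted p = 0.795).

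Single arrays carried several of these calls. Without the siCtrl EBSS array the adjusted p was 0.132 for NFKBIA, 0.223 for NFKBIE and 0.178 for TNFAIP2, and without the siRelA EBSS array it was 0.226, 0.227 and 0.0964 in the same order. TNFAIP2 also missed the threshold without the siRelA mock array (0.0723), NFKBIB without the siCtrl mock array (0.0683), and TNFAIP3 without any one of the 4 siRelA and siCtrl arrays of the set (0.0554 to 0.204).

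With siRelB, the same siCtrl arrays served as the control, so these differences share their error with those of siRelA. NFKBIB rose and NFKBIA fell, and 5 of the 7 did not pass, where 7.58% of all tested genes rose and 8.55% fell. The median difference was -0.03 over the 7 and 0.00 over all tested genes. NFKBIB had 8.38 and 7.99 in siRelB EBSS and mock, against 7.98 and 7.24 in siCtrl EBSS and mock, a difference of 0.57 ± 0.15 (SE, 2 pairs, limma adjusted p = 0.0110). The siRelB mock array barely exceeded the siCtrl EBSS array.

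NFKBIA had 10.12 and 10.09 in siRelB EBSS and mock, against 10.59 and 10.52 in siCtrl EBSS and mock, a difference of -0.45 ± 0.14 (SE, 2 pairs, limma adjusted p = 0.0355). Unlike the siRelA arrays, the siRelB arrays held nearly equal values in both media. NFKBIE stood at 7.48 and 7.06 in siRelB, against 7.90 and 7.31 in siCtrl, with a difference of -0.33 ± 0.13 (limma adjusted p = 0.0874). TNFAIP2 stood at 7.55 and 7.52, against 8.03 and 7.72, with -0.34 ± 0.14 (limma adjusted p = 0.0940). The siRelB arrays were the lower ones in every pair of both genes, but there were only 2 pairs and neither gene passed. TNFAIP3 stood at 5.78 and 5.42, against 6.28 and 5.70, with -0.39 ± 0.20 in the fit without a filter (limma adjusted p = 0.288). BCL3, TNIP1 and TNIP2 differed by -0.03, 0.14 and 0.08.

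Both siRelB calls rested on single arrays. NFKBIA missed the threshold without the siCtrl EBSS (0.461), siRelB EBSS (0.0617) or siRelB mock array (0.409), and NFKBIB without the siCtrl mock (0.247), siRelB EBSS (0.0550) or siRelB mock array (0.171).

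The difference between siRelB and siRelA was tested directly, and 0 of the 7 genes passed (limma; 0 at an unadjusted p under 0.05), where 10.1% of all tested genes did. The estimate was 0.17 for NFKBIA, with a 95% interval of -0.12 to 0.47, and -0.16 for NFKBIB, with an interval of -0.47 to 0.15. For NFKBIE it was 0.14 (-0.13 to 0.41) and for TNFAIP2 0.17 (-0.12 to 0.45). BCL3, TNIP1 and TNIP2 had 0.02, -0.06 and 0.02, and TNFAIP3, in the fit without a filter, had 0.38 ± 0.20 (limma adjusted p = 0.355). The intervals still hold differences as large as those bounds, and a pass with siRelA but not with siRelB, as for NFKBIE and TNFAIP2, does not show a difference between the siRNAs.

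Whether an siRNA's difference depended on the medium was tested as an interaction, and 0 of the 7 genes passed for siRelA or for siRelB, with 0.0363% and 0% of all genes called. At an unadjusted p under 0.05 there was 1 of the 7 for siRelA and 0 for siRelB. For NFKBIA the siRelA difference was -0.97 in EBSS and -0.28 in mock, an interaction of -0.68 ± 0.24 (limma adjusted p = 0.741). The interaction fit left no spread in the NF-kB set, so its standard errors come from the arrays of the Nupr1 set alone. The other siRelA interactions were 0.38 for BCL3, -0.36 for NFKBIB, -0.37 for NFKBIE, -0.19 for TNFAIP2, -0.47 for TNIP1, -0.06 for TNIP2 and, without the filter, -0.35 for TNFAIP3. With siRelB they were -0.05 for NFKBIA, -0.35 for NFKBIB, -0.16 for NFKBIE, -0.28 for TNFAIP2 and -0.21 for TNFAIP3, and -0.02, 0.01 and 0.00 for BCL3, TNIP1 and TNIP2. On simulated data this test recovered 0.5% of changes of 1.5-fold for siRelA and 0% for siRelB, so it had almost no ability to call one.

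**Figure D2:**
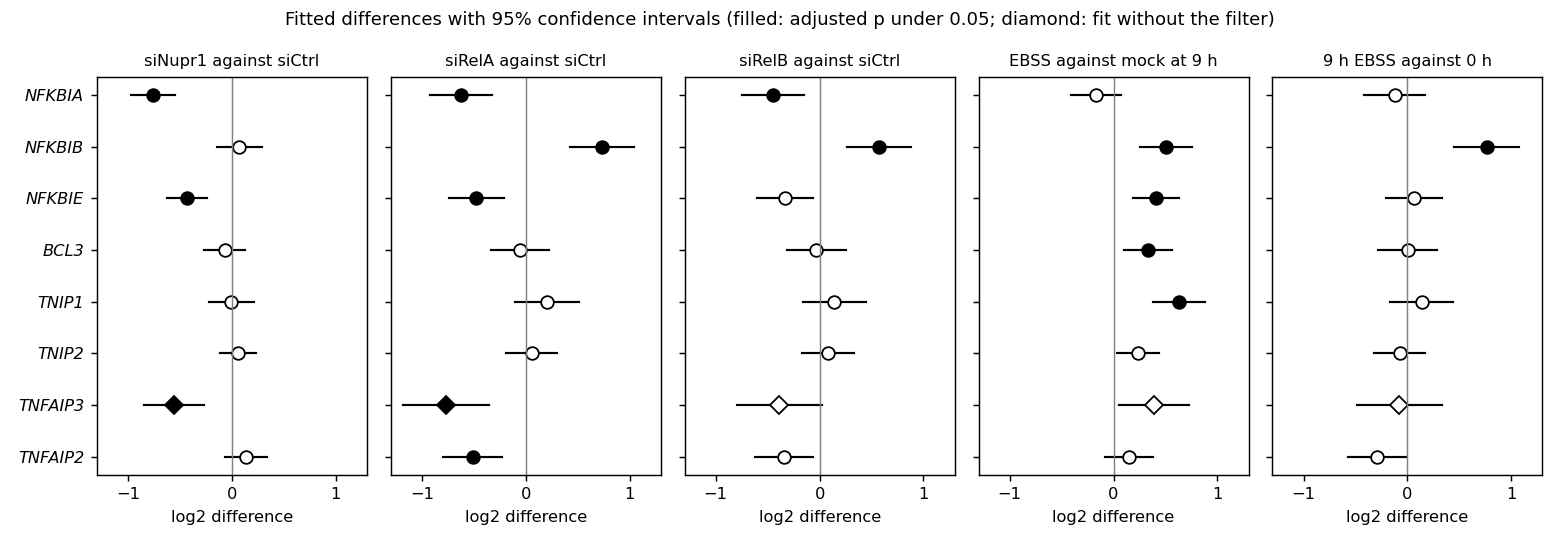
Fitted log2 differences (horizontal axis) with 95% intervals for the 8 genes in the siRNA and starvation comparisons. NFKBIA and NFKBIE lie left of 0 with siNupr1 and siRelA, while NFKBIB lies right of 0 with siRelA and siRelB.

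With siNupr1, NFKBIA and NFKBIE were lower than with siCtrl at every time, and no tested member rose. Of the 7 genes tested 0 rose and 2 fell, against 9.86% and 8.58% of all tested genes. The median difference was 0.00 over the 7 and 0.01 over all genes. NFKBIA had 9.08, 8.98, 9.12 and 8.74 with siNupr1 at 0, 3, 6 and 9 h, against 9.64, 9.83, 9.75 and 9.74 with siCtrl. The siCtrl values stayed nearly level, and every siNupr1 value lay well under them. The difference was -0.76 ± 0.10 (SE, 4 pairs, limma adjusted p = 6.03e-05), with single pairs of -0.55, -0.86, -0.63 and -1.0. Of all tested genes, 3.43% lay lower with no overlap of the 4 arrays and 4.

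NFKBIE had 6.91, 7.14, 7.20 and 6.85 with siNupr1 at 0, 3, 6 and 9 h, against 7.30, 7.51, 7.52 and 7.49 with siCtrl. Here too every siNupr1 array lay under every siCtrl array, and the difference was -0.43 ± 0.09 (SE, 4 pairs, limma adjusted p = 0.00293). TNFAIP3 fell by 0.56 ± 0.14 in the fit without a filter (SE, 4 pairs, limma adjusted p = 0.0158), where 9.63% of genes passed. It had 5.01, 5.27, 5.08 and 5.00 with siNupr1, against 5.58, 6.45, 5.12 and 5.43 with siCtrl. The siCtrl 3 h array stood out as high, and at 6 h the pair was nearly level. TNFAIP3 missed the threshold without the siNupr1 or siCtrl array at 0 h (0.0547 and 0.0548) or at 3 h (0.180 and 0.181).

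**Figure D3:**
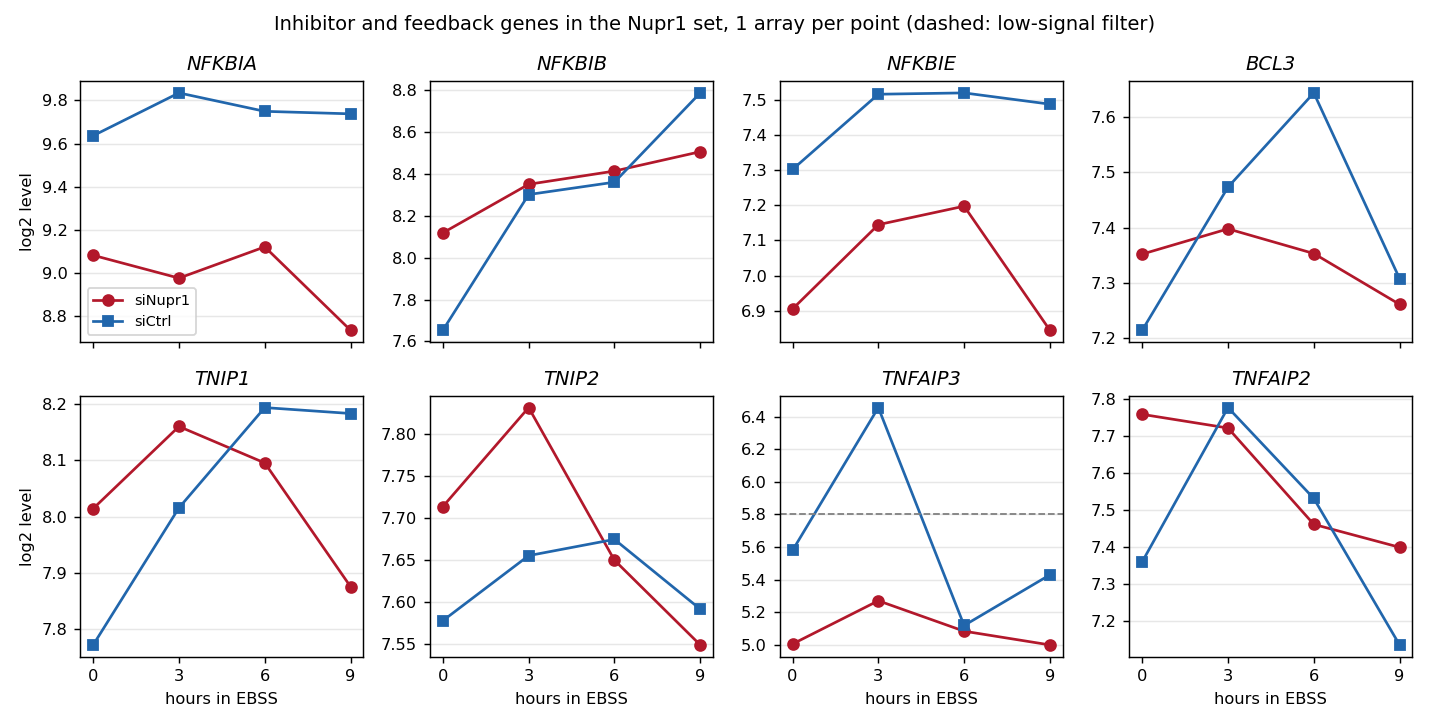
Log2 signal (vertical axis) of the 8 genes by hours in EBSS (horizontal axis), with 1 point per array for siNupr1 and siCtrl. NFKBIA values with siNupr1 lie between 8.74 and 9.12, all under the siCtrl values of 9.64 to 9.83.

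The calls of NFKBIA and NFKBIE remained past the threshold without any one of the 14 arrays, with adjusted p of at most 0.00148 and 0.0176. Without the siNupr1 9 h array, whose title is in doubt, the differences were -0.68 for NFKBIA, -0.36 for NFKBIE and, without the filter, -0.60 for TNFAIP3 (adjusted p = 0.000828, 0.0133 and 0.0276). The other genes had differences of -0.07 for BCL3, 0.07 for NFKBIB, 0.13 for TNFAIP2, 0.00 for TNIP1 and 0.06 for TNIP2, and did not pass. NFKBIB, higher with siRelA and siRelB, thus had a mean difference near 0 with siNupr1. Its single pairs ran between 0.47 at 0 h and -0.28 at 9 h. A change of the siNupr1 difference per hour was called for 0 of 11026 genes (0%), and 2 of the 7 had an unadjusted p under 0.05. The slope of NFKBIB was -0.07 ± 0.02 per hour and that of TNIP1 was -0.06 ± 0.03 (limma adjusted p = 0.132 and 0.195). The slopes of the other tested members lay between -0.04 for NFKBIA and -0.01 for TNFAIP2, and TNFAIP3 had 0.05 ± 0.04 without the filter (limma adjusted p = 0.596).

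**Figure D4:**
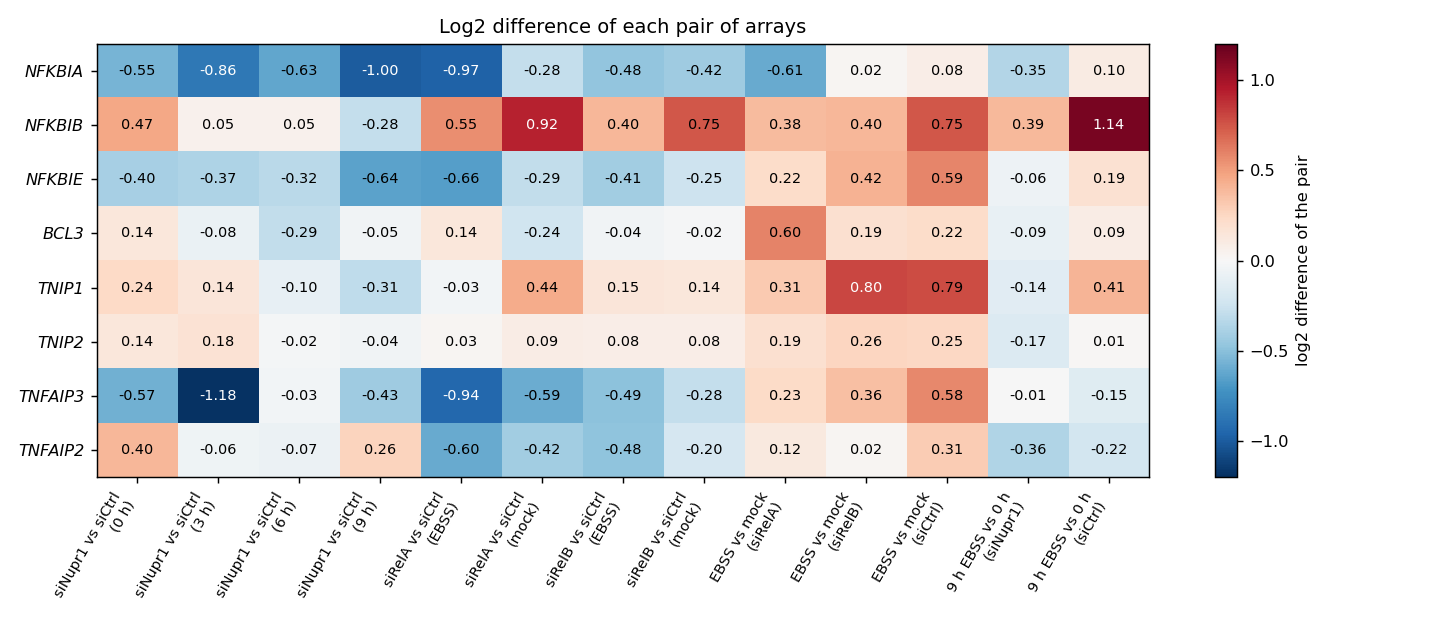
Log2 difference of single pairs of arrays (colour) for the 8 genes (rows), by siRNA and condition (columns). NFKBIA is lower in all 4 siNupr1 pairs, from -1.0 at 9 h to -0.55 at 0 h, and in both siRelA and both siRelB pairs.

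In starvation for 9 h, EBSS against mock, 4 of the 7 genes rose and 0 fell, where 22.6% of all tested genes rose and 29.3% fell. The median difference was 0.34 over the 7 and 0.05 over all tested genes. TNIP1 had 8.10, 8.29 and 8.14 in EBSS with siRelA, siRelB and siCtrl, against 7.79, 7.49 and 7.35 in mock. All EBSS values lay above all mock values, with a difference of 0.63 ± 0.12 (SE, 3 pairs, limma adjusted p = 0.000209). NFKBIB, in the same order of siRNAs, had 8.54, 8.38 and 7.98 in EBSS, against 8.16, 7.99 and 7.24 in mock. Each pair was higher in EBSS, although the groups overlapped with the siCtrl arrays standing lower, and the difference was 0.51 ± 0.12 (SE, 3 pairs, limma adjusted p = 0.00178).

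NFKBIE rose by 0.41 ± 0.11 (SE, 3 pairs, limma adjusted p = 0.00337), with 7.24, 7.48 and 7.90 in EBSS, against 7.02, 7.06 and 7.31 in mock. Its EBSS value was highest with siCtrl and lowest with siRelA. BCL3 rose by 0.34 ± 0.11 (SE, 3 pairs, limma adjusted p = 0.0164), with 7.59, 7.42 and 7.46 in EBSS, against 7.0, 7.22 and 7.24 in mock, and its groups did not overlap. NFKBIE missed the threshold without the siCtrl EBSS (0.0526) or siCtrl mock array (0.0516), and BCL3 without the siRelA EBSS (0.214) or siRelA mock array (0.212). TNIP2 had 7.69, 7.75 and 7.67 in EBSS, against 7.50, 7.50 and 7.42 in mock. Its groups did not overlap, as for 23.1% of all tested genes in that direction, but its difference of 0.23 ± 0.10 narrowly missed the threshold (limma adjusted p = 0.0507). It passed after quantile normalization (0.00615), with the lowest 60% of genes left out (0.0461), with array weights (0.0385), with no intensity trend (0.0448), with the arrays of its own set alone (0.0471), and without the siNupr1 9 h (0.0330) or siCtrl 9 h array (0.0329) of the Nupr1 set.

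NFKBIA did not pass in this comparison. It had 9.63, 10.12 and 10.59 in EBSS with siRelA, siRelB and siCtrl, against 10.23, 10.09 and 10.52 in mock, and a difference of -0.17 ± 0.12 (SE, 3 pairs, limma adjusted p = 0.219). Its pairs split, with the siRelA pair lower in EBSS and the other pairs nearly level. With the trend on the genomic span of genes removed, NFKBIA fell by 0.34 (adjusted p = 0.0300), and NFKBIE and BCL3 missed the threshold (0.0537 and 0.101). TNFAIP2 differed by 0.15 ± 0.11 (limma adjusted p = 0.257) and TNFAIP3, without the filter, by 0.39 ± 0.16 (limma adjusted p = 0.0687). TNFAIP3 passed without the siNupr1 or siCtrl array at 3 h (0.0323 and 0.0327) or at 6 h (0.0442 and 0.0443). Of the genes called in this comparison 43.5% rose, against 56.3% after quantile normalization and 30.3% with the span trend removed. The median of all genes was 0.11 after quantile normalization.

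Over time in EBSS against 0 h, NFKBIB was the only one of the 7 genes that passed. At 3 h 0 of 7 passed (limma; 1 at an unadjusted p under 0.05), where 3.27% of all genes rose and 9.07% fell. At 6 h NFKBIB rose, as did 7.65% of all genes, while 15.7% fell, and at 9 h NFKBIB rose again, against 9.19% and 15.1%. It had 8.12, 8.35, 8.41 and 8.51 with siNupr1 at 0, 3, 6 and 9 h, and 7.65, 8.30, 8.36 and 8.79 with siCtrl. Every starved array exceeded both 0 h arrays, and siCtrl began lower and ended higher than siNupr1. The share of all tested genes with such a separation is not given, so it is only a description.

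The difference of NFKBIB from 0 h was 0.44 ± 0.15 at 3 h (SE, 2 pairs, limma adjusted p = 0.0571). It was 0.50 ± 0.15 at 6 h (adjusted p = 0.0181) and 0.76 ± 0.15 at 9 h (adjusted p = 0.000801). The 9 h call remained without any one of the 14 arrays, with an adjusted p of at most 0.0446. The 6 h call was lost without the siCtrl 0 h (0.401), siCtrl 6 h (0.157) or siNupr1 6 h array (0.0916). At 3 h NFKBIB passed when the siCtrl 9 h, siNupr1 0 h or siNupr1 9 h array was left out, and its adjusted p ranged from 0.00737 to 0.618 without single arrays.

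TNFAIP2 had 7.76, 7.72, 7.46 and 7.40 with siNupr1 at 0, 3, 6 and 9 h, and 7.36, 7.78, 7.53 and 7.14 with siCtrl. Both 9 h values lay under both 3 h values, as for 21.6% of all tested genes. At 9 h against 3 h it fell by 0.48 ± 0.14 (SE, 2 pairs, limma adjusted p = 0.0348) and was the 1 gene of 7 that passed, where 4.68% of all genes rose and 2.66% fell. The call was lost without the siCtrl 3 h (0.392), siCtrl 9 h (0.169), siNupr1 3 h (0.118) or siNupr1 9 h array (0.0567). BCL3 and TNIP2 had differences of -0.15 ± 0.14 and -0.17 ± 0.12 between 9 h and 3 h and did not pass (limma adjusted p = 0.544 and 0.411). NFKBIA had -0.17, NFKBIB 0.32, NFKBIE -0.16 and TNIP1 -0.06, with adjusted p of 0.202 or more. Over the Nupr1 set BCL3 ranged between 7.21 and 7.64, TNIP1 between 7.77 and 8.19, and TNIP2 between 7.55 and 7.83, the siNupr1 and siCtrl values overlapping.

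The members that passed at no time against 0 h had differences of at most 0.29 in size, TNFAIP3 aside. TNIP1 and NFKBIE, higher in EBSS than in mock, had 0.20, 0.25 and 0.14 (TNIP1) and 0.23, 0.25 and 0.06 (NFKBIE) at 3, 6 and 9 h. Their standard errors were 0.15 and 0.13, and the lowest adjusted p was 0.167, for NFKBIE at 6 h. At the same times BCL3 had 0.15, 0.22 and 0.00, and NFKBIA had 0.05, 0.08 and -0.12. TNFAIP2 had 0.19, -0.06 and -0.29, and TNIP2 had 0.10, 0.02 and -0.08. TNFAIP3, in the fit without a filter, had 0.57 ± 0.20 at 3 h, -0.19 ± 0.20 at 6 h and -0.08 ± 0.20 at 9 h (limma adjusted p = 0.0925, 0.598 and 0.882), and -0.65 ± 0.20 at 9 h against 3 h (0.0805). Without the siNupr1 3 h array it passed at 3 h (0.99, adjusted p = 0.0208) and for 9 h against 3 h (-1.07, 0.0276). Mock at 9 h and 0 h are different controls, and the difference between the sets' responses was not tested.

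The share of risers among called genes moved with scaling here as well. After quantile normalization it was 44.7% at 3 h, 45.7% at 6 h, 47.3% at 9 h and 51.8% for 9 h against 3 h, against 26.5%, 32.7%, 37.9% and 63.8% as deposited.

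One condition was measured in both sets, siCtrl after 9 h in EBSS, with 1 array each. NFKBIA stood at 9.74 in the Nupr1 set and 10.59 in the NF-kB set, NFKBIB at 8.79 and 7.98, and TNFAIP2 at 7.14 and 8.03. Gaps as wide as these were found for 13.9%, 16.1% and 12.5% of all tested genes. The dim TNFAIP3 stood at 5.43 and 6.28, a gap as wide as for 14.1% of tested genes, and NFKBIE at 7.49 and 7.90 (48.3%). TNIP1 stood at 8.18 and 8.14, TNIP2 at 7.59 and 7.67, and BCL3 at 7.31 and 7.46. These gaps lie between sets, so the levels below are read within a set.

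Within a set the genes differed in how far apart their lowest and highest arrays lay. In the Nupr1 set NFKBIA spanned 1.10 and NFKBIB 1.14 on the log2 scale, which put them at percentile 93.0 and 93.9 of tested genes, and in the NF-kB set they spanned 0.97 and 1.3, at percentile 79.1 and 89.6. TNIP2 spanned 0.28 in the Nupr1 set and 0.34 in the NF-kB set, at percentile 6.62 and 11.5, and BCL3 spanned 0.43 and 0.60, at percentile 28.9 and 48.9. The median span over all tested genes was 0.55 in the Nupr1 set and 0.60 in the NF-kB set. After each set's mean was subtracted, Pearson's r over the 14 arrays was 0.73 between NFKBIA and NFKBIE, 0.83 between TNIP1 and TNIP2, 0.73 between NFKBIB and TNIP1, and -0.37 between NFKBIA and NFKBIB. These values are descriptions, as the arrays share siRNAs and media.

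By the same measure, the tested genes most like NFKBIA were DPAGT1 (r = 0.85), CXCL8 (0.85) and RTTN (0.83). For NFKBIE they were PRKAB1 (0.92), PIGO (0.91) and NFKB2 (0.89), and for NFKBIB they were VPS26C (0.96), GNPDA1 (0.95) and POLR3D (0.95). CXCL8 encodes a neutrophil-attracting chemokine and NFKB2 the precursor of RELB's usual partner. TNIP1 was most like ZYX (0.97), TBKBP1 (0.95) and SNAPC2 (0.94), and TNIP2 was most like HSF4 (0.94), ABHD14A (0.93) and MIF4GD (0.92). BCL3 was most like NAGLU (0.92), ABHD8 (0.90) and TPGS1 (0.90), and TNFAIP2 was most like MRPL41 (0.85), MRPL23 (0.85) and KRTAP10-9 (0.84).

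Other genes of the pathway were read from 6 lists of 93 genes in all, some genes standing in more than 1 list. The lists were chosen with earlier results of these data known, so their counts are descriptions. Their counts are set beside the shares of all tested genes, which were 9.86% up and 8.58% down with siNupr1, 10.1% and 11.4% with siRelA, 7.58% and 8.55% with siRelB, and 22.6% and 29.3% in EBSS against mock. Of 32 listed target genes of NF-kB, 16 lay above the low-signal limit. With siNupr1, 0 of the 16 rose and 9 fell, where 8.58% of all tested genes fell, with a median of -0.27 against 0.01 over all tested genes. The log2 difference was -0.95 ± 0.15 for CXCL8, -0.82 ± 0.09 for NFKB2, -0.67 ± 0.12 for RELB and -0.58 ± 0.10 for LIF, a cytokine (SE, 4 pairs, limma adjusted p = 0.000386, 1.32e-05, 0.000945 and 0.000605).

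With siRelA, 1 of the 16 targets rose and 7 fell (median -0.35), where 11.4% of all tested genes fell. With siRelB, against the same siCtrl arrays, 1 rose and 9 fell (median -0.44), where 8.55% of all tested genes fell, and RELB, which siRelB silences, is 1 of the 9. For CXCL8 the log2 difference was -1.32 ± 0.22 with siRelA and -0.97 ± 0.22 with siRelB (SE, 2 pairs each, limma adjusted p = 0.000262 and 0.00430). TAP1, a peptide transporter of antigen presentation, fell by 1.18 ± 0.14 with siRelA (limma adjusted p = 6.71e-06). CCND1, the cell cycle protein cyclin D1, fell by 0.73 ± 0.11 with siRelB (limma adjusted p = 0.000174). In EBSS against mock, 9 targets rose and 1 fell (median 0.35), where 22.6% and 29.3% of all tested genes did, with LIF up by 1.23 ± 0.12 and NFKB2 by 1.12 ± 0.11 (SE, 3 pairs, limma adjusted p = 5.17e-08 and 5.54e-08). With the span trend removed, 6 rose and 1 fell.

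Of 21 other inhibitors and feedback genes, 18 were tested beside those described above. With siNupr1 0 rose and 2 fell (median -0.09), with siRelA 0 rose and 3 fell (-0.13), and with siRelB 1 rose and 5 fell (-0.17). The array-wide shares that fell were 8.58%, 11.4% and 8.55%, which for 18 genes is close to the counts with siNupr1 and siRelA. BIRC2, a ubiquitin ligase that degrades the kinase NIK, fell in all of them, with log2 differences of -0.61 ± 0.09 for siNupr1, -0.92 ± 0.13 for siRelA and -1.40 ± 0.13 for siRelB (limma adjusted p = 0.000186, 5.16e-05 and 8.44e-07). CYLD, a deubiquitinase, fell by 0.44 ± 0.10 with siNupr1 (limma adjusted p = 0.00477). In EBSS against mock 5 rose and 9 fell, where 22.6% and 29.3% of all tested genes did, and with the span trend removed 2 rose and 9 fell. NKIRAS1, which slows IkB degradation, had -0.99 ± 0.11, and TAX1BP1, an adaptor of TNFAIP3, had -0.92 ± 0.11 (SE, 3 pairs, limma adjusted p = 7.47e-07 and 1.18e-06). IER3, a stress-response protein, had 0.71 ± 0.12 (limma adjusted p = 4.13e-05). At 9 h in EBSS against 0 h, in the Nupr1 set, TAX1BP1 instead rose by 0.82 ± 0.14 (limma adjusted p = 0.000181). There 5 of the 18 rose and 2 fell, where 9.19% and 15.1% of all tested genes did. The list's median was 0.12 there and -0.28 in EBSS against mock. The controls differ, and the difference between these responses was not tested.

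Of the 5 NF-kB subunits, all tested and silenced genes included, 0 rose and 2 fell with each of the siRNAs, and 3 rose and 1 fell in EBSS against mock. The array-wide shares that fell were 8.58%, 11.4%, 8.55% and 29.3% for siNupr1, siRelA, siRelB and EBSS, and the silenced gene is 1 of the 2 that fell with siRelA and with siRelB. NFKB2 fell with siNupr1, siRelA and siRelB, with log2 differences of -0.82 ± 0.09 for siNupr1, -0.49 ± 0.13 for siRelA and -0.43 ± 0.13 for siRelB (limma adjusted p = 1.32e-05, 0.00970 and 0.0271). REL fell by 0.92 ± 0.12 in EBSS against mock (limma adjusted p = 2.23e-06).

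Another list held 10 tested genes, for kinases of the pathway and their partner proteins IKBKG, TAB2 and TAB3. Among these, 0 rose and 4 fell with siNupr1 (median -0.16), and 0 rose and 2 fell with siRelA (-0.12). With siRelB 2 rose and 4 fell (-0.11), and in EBSS against mock 1 rose and 5 fell (-0.19). The array-wide shares that fell were 8.58%, 11.4%, 8.55% and 29.3% in that order. The log2 difference of TBK1, a kinase related to the IKKs, was -0.54 ± 0.11 for siNupr1, -1.26 ± 0.15 for siRelA, -0.75 ± 0.15 for siRelB and -1.34 ± 0.13 for EBSS (limma adjusted p = 0.00197, 1.30e-05, 0.00203 and 5.08e-08). MAP3K14, the kinase NIK of the alternative pathway, fell by 0.65 ± 0.09 with siNupr1 (limma adjusted p = 0.000144). CHUK, the IKK-alpha kinase, fell with siNupr1, siRelA and siRelB and in EBSS against mock, with log2 differences of -0.62 ± 0.10 for siNupr1, -0.70 ± 0.14 for siRelA, -0.70 ± 0.14 for siRelB and -1.29 ± 0.11 for EBSS (limma adjusted p = 0.000345, 0.00122, 0.00169 and 2.79e-08).

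Of 9 tested genes for the ubiquitination of IkB or of the signalling complexes, 5 passed in EBSS against mock, 3 of them upward. Of all tested genes, 22.6% rose and 29.3% fell. The risers included RBCK1 and RNF31, of the linear ubiquitin ligase, by 0.47 ± 0.11 and 0.39 ± 0.11 (SE, 3 pairs, limma adjusted p = 0.00155 and 0.00820). CUL1, a scaffold of the ligase that ubiquitinates IkB, fell by 0.72 ± 0.10 there (limma adjusted p = 7.15e-06). With siRelA 1, RBCK1, a subunit of the linear ubiquitin ligase, rose by 0.54 ± 0.14 (limma adjusted p = 0.00698), near the 10.1% of all tested genes that did. Of 14 tested receptors and adaptors, 5 rose and 1 fell with siRelA, 2 rose and 1 fell with siRelB, 1 rose and 1 fell with siNupr1, and 5 rose and 2 fell in EBSS against mock. Of all tested genes 10.1%, 7.58%, 9.86% and 22.6% rose in these comparisons, so the siNupr1 and siRelB counts lie near the array-wide shares. IL1R1, a receptor for interleukin-1, rose with both siRNAs of the NF-kB set, with log2 differences of 0.97 ± 0.13 for siRelA and 0.89 ± 0.13 for siRelB (SE, 2 pairs each, limma adjusted p = 2.74e-05 and 7.95e-05). In EBSS against mock IL1R1 fell by 1.65 ± 0.10 (SE, 3 pairs, limma adjusted p = 9.72e-10).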

How the data were processed

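Per the labels, MiaPaCa2 total RNA was labelled by a whole-transcript protocol for 14 arrays. The deposited values are log2 intensities that the authors made by RMA, per the submitters' processing notes, which also name limma; no source used here gives versions or a cluster build. RMA corrects background, quantile normalizes and summarizes probes, which compresses differences of dim genes. Of 28869 transcript clusters, 19310 carried 1 gene symbol and gave 18377 genes; with several clusters, the brightest by mean was used. Tests covered 11026 genes after removal of the dimmest 40% by mean. No array was left out. The number of arrays limits the precision.

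In R 4.3.3 with limma 3.58.1, a joint model of set-by-condition and siRNA with 9 columns was fitted with eBayes and an intensity trend, on 5 residual degrees of freedom (4 with the slope on hours, 3 with the interactions). A gene was called when its p, adjusted by Benjamini-Hochberg across every gene in the test, was under 0.05. TNFAIP3 was tested without the filter. On simulated data, changes of 1.5-fold were recovered for 99.5% with siNupr1, 76.5% with siRelA, 81.5% with siRelB, 96% for EBSS against mock and 77%, 77.5% and 74.5% at 3, 6 and 9 h.

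The text names the 8 genes in every comparison, the silenced genes, from each pathway list some of the up to 4 members past the threshold that differed most, and the 3 genes most like each member. The members and lists were chosen with earlier results of these data known. The alternatives left out each array or changed the filter, scaling, weights, trend, cluster rule or model.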

Additional observations from a re-analysis of the deposited data

How the results depend on the processing

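The 12 counts of members past the threshold and the difference of each gene were recomputed under up to 23 alternatives. No call reversed its direction, while of 1982 single-gene values 48 lost and 22 gained a call. For EBSS against mock, 9 h against 0 h, siRelB against siRelA and the interactions, the count of members stayed within 1.5 times the reported one. At 3 h it was 1 in place of 0 with the lowest 60% of genes left out, with quantile normalization and with array weights, and 0 to 1 without single arrays; at 6 h it was 0 to 1 without single arrays, against 1. For 9 h against 3 h it was 0 with no filter and with array weights, and 0 to 1 without single arrays, against 1. For siNupr1 it was 1 with no condition term, NFKBIE being at 0.0987, against 2. For siRelA it was 0 with no condition term and 1 to 4 without single arrays, against 4. For siRelB it was 1 with no filter, quantile normalization, the span trend removed or no intensity trend, 0 with no condition term, and 0 to 2 without single arrays, against 2; NFKBIA was then at 0.0602, 0.0628, 0.0511 and 0.0652. The slope count was 1, NFKBIB with an adjusted p of 0.0326, when the Nupr1 set was fitted alone, against 0. The causes were not tested. Leaving out any array of the NF-kB set gave no value for either interaction, so only arrays of the Nupr1 set were left out there. No paired analysis was possible because the labels carry no replicate numbers to block on; the reported fits match arrays by medium and time, and the fit with no condition term is the unmatched one. With 1 array per combination, the precision is limited to the standard errors and intervals given.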
